A study of Mus musculus with 9 samples.

Results

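The genes described here set whether a resting cell leaves quiescence: the G1 kinases Cdk4 and Cdk6, the D cyclins Ccnd1, Ccnd2 and Ccnd3, the CDK inhibitors Cdkn1a, Cdkn1b and Cdkn2c, the retinoblastoma gene Rb1 and the antiproliferative gene Btg1. These 10 genes were chosen by role, with earlier results of these data known. They come from 22180 genes with a probe set that carries a single symbol. Where a gene had several such probe sets, the brightest on average was used, and all 10 passed the filter on dim genes.

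Hematopoietic stem cells (HSCs) were sorted from the marrow of mice aged 6 to 8 months and profiled on Affymetrix Mouse Gene 2.0 ST arrays, with 3 biological replicates per genotype. KO mice carried 2 floxed Bcl11a alleles and Mx1-Cre, Het mice 1 floxed and 1 wild-type allele and Mx1-Cre, and WT mice 2 floxed alleles without Cre. Every mouse, WT included, had received 5 doses of poly(I:C), which induces interferon. Mx1-Cre responds to interferon in many cell types, so deletion is not limited to HSCs, and absence of Cre also sets WT mice apart. Sorted cells lacked lineage antigens, Flt3 and CD48 and carried CD150, Kit and Sca-1. Both YFP-positive and YFP-negative cells are mentioned, without a statement of which were put on a given array.

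In a cell that is about to divide, growth signals raise D cyclins, which bind Cdk4 or Cdk6. The active kinases phosphorylate Rb, which then releases the E2F transcription factors that drive DNA replication genes. Cdkn2c (p18-INK4c) blocks Cdk4 and Cdk6 directly, while Cdkn1a (p21) and Cdkn1b (p27) mainly block the later Cdk2 complexes. Most adult HSCs are quiescent. In human HSCs, Cdk6 is known to be low in the long-term stem cell and higher in the short-term one, and its level sets how fast a cell leaves quiescence. Bcl11a is a zinc finger repressor best known for silencing fetal globin and for lymphoid development.

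Promoters are shown for Cdk6, the member that separated the genotypes, and for its partner Cdk4, which did not. The windows run from 250 bases before to 50 bases after the annotated start (RefSeq, GRCm38.p6, both on the plus strand), at chr5:3343643-3343942 for Cdk6 and chr10:127063285-127063584 for Cdk4. Capitals mark the E-box CACGTG, a word bound by Myc and related factors.
Cdk6: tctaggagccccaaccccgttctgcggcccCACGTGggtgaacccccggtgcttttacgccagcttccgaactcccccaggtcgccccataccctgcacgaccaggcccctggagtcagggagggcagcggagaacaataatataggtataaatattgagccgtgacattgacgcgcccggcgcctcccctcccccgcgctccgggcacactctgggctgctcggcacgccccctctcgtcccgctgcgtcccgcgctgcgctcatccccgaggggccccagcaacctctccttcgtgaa
Cdk4: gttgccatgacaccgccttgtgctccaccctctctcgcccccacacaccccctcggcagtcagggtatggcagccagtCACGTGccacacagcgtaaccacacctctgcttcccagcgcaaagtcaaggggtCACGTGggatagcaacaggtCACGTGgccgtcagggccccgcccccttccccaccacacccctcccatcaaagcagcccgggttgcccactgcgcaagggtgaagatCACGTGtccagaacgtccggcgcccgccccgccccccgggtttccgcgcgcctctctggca
The Cdk6 window held the E-box 1 time, at -220 from the start, and the Cdk4 window 4 times, at -172, -118, -98 and -11. The same word stood in 7.15% of all 32851 promoter windows. Promoter windows were found for 7 of the 10 genes, 10 windows in all. The E-box was in 3 of the 10, those of Cdk4, Cdk6 and a Cdkn2c start. The word TGACCA, which BCL11A binds in the globin locus, was in neither window above and in 1 of the 10 windows, that of a Ccnd3 start, against 13.6% of all windows (both strands searched). None of the 10 windows held an E2F word (TTTGGCGC, TTTCCCGC, TTTGCCGC or TTTCGCGC; 2.26% of all windows) or the cell cycle words TTTGAA and TTCGAA (19.2%). GGGCGG, the GC box, was in 7 of the 10, the Cdk4 window included and the Cdk6 window not (35.7% of all windows). These letters describe the windows and say nothing of factor binding in these cells.

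All levels below are log2 RMA values, and a difference of 1 is a 2-fold change. The array is read in hybridisation units, so levels of different genes are not compared with each other. Arrays of the same genotype correlated at Pearson's r of 0.862 to 0.932 over 41345 probe sets, and the interquartile range of an array ran from 2.22 to 2.83. WT replicate 1 stood apart, with the lowest interquartile range (2.22) and the lowest median correlation with the other arrays (0.861). Xist and Y-linked transcripts placed 1 of 3 KO, 1 of 3 Het and 2 of 3 WT mice as female. Where absent, these sex-linked transcripts read 2.22 to 4.22, which gives a scale for transcripts that are not there. The stem cell marker Kit read 8.75 to 10.01, above that scale on all arrays. Of the B cell genes read, 3 of 5 (Cd79a, Ebf1 and Ms4a1) never left that scale. The same held for 3 of 6 T and NK cell genes (Cd3e, Cd3g and Ncr1). The other genes of both lists read above that scale on 1 array or more. Bcl11a read 7.82, 7.90 and 8.66 in KO, 8.34, 8.37 and 8.89 in Het and 8.73, 8.81 and 8.38 in WT cells. A second Bcl11a probe set read 7.26, 6.94 and 7.39 in KO, 6.97, 6.70 and 7.44 in Het and 6.38, 8.08 and 6.93 in WT cells, a KO minus WT difference of 0.07, against -0.51 for the set above. In the set above, KO replicate 3 had a level between those of the WT arrays, and which part of the gene the probes cover is not known here, so Bcl11a does not check the deletion.

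Of the 10 genes, none passed the test in any comparison. The test was limma over all 16636 genes above the filter, with Benjamini-Hochberg adjustment at 0.05. In KO against WT cells it called 0 of the 10 members and 7 of all genes tested (0.0421%). In Het against WT and in KO against Het cells it called 0 members and 0 genes (0%). Without adjustment, at p under 0.05, KO minus WT held 1 member, Cdk6, and 1366 genes (8.21%), Het minus WT 1 member, Cdk6, and 813 genes (4.89%), and KO minus Het 1 member, Cdkn2c, and 759 genes (4.56%). A count of 1 in 10 lies close to each background. By direction, 5.4% of genes were higher and 2.81% lower in KO than in WT cells at that p, 3.12% and 1.77% in Het than in WT cells, and 2.61% and 1.95% in KO than in Het cells. The comparisons share arrays and are not independent of each other. With 3 arrays per genotype, the exact two-sided permutation test cannot go below p = 0.1.

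Cdk6 was the member that separated the genotypes. It read 7.97, 7.91 and 8.07 in KO cells, 8.33, 8.32 and 8.32 in Het cells and 9.04, 8.69 and 9.30 in WT cells. Every KO array lay below every Het array, and every Het array below every WT array. That order without overlap was found in 19 of the 16636 genes tested (0.114%), and in 1 of the 10 members; the opposite order was found in 28 genes (0.168%) and no member. The means were 7.98 ± 0.081 in KO, 8.32 ± 0.0058 in Het and 9.01 ± 0.31 in WT cells (SD, n = 3 each). KO minus WT was -1.03 (SE 0.22, 95% interval -1.52 to -0.54), a 2.04-fold lower level in KO, with an adjusted p of 0.237 in limma. It had the 60th smallest p of all genes tested and the 9th smallest among those lower in KO. Het minus WT was -0.69 (95% interval -1.18 to -0.20, adjusted p = 0.888 in limma), and KO minus Het -0.34 (-0.83 to 0.15, adjusted p = 0.998). Per deleted allele the log2 level changed by -0.51 (SE 0.11, adjusted p = 0.200 in limma), where 3 genes were called (0.018%) and 1439 had an unadjusted p under 0.05 (8.65%).

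Cdk6 had a small spread. Its pooled SD within genotypes was 0.18, against a median of 0.37, and stood at percentile 6.72 of the genes tested. The 3 Het arrays read 8.32 or 8.33. Most of the spread was among the WT arrays, of which replicate 2, from a male mouse, was the lowest. The KO minus WT difference was -1.10 among female arrays (1 KO, 2 WT) and -0.75 among male arrays (2 KO, 1 WT), and that of Het minus WT -0.85 and -0.37. Under 20 alternative settings KO minus WT stayed between -1.19 and -0.88, with adjusted p from 0.131 to 0.551. Some of these settings, such as a changed filter or a left-out Het array, can move only the p-value and not the difference.

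Cdk4, the partner kinase that binds the same cyclins, read 8.02, 8.16 and 7.87 in KO cells, 7.79, 7.75 and 7.96 in Het cells and 6.75, 8.17 and 8.44 in WT cells. The genotypes overlapped, and the WT group spanned all other arrays, with replicate 1 far below the rest. The KO minus WT difference was 0.23 (95% interval -0.62 to 1.08, adjusted p = 0.870 in limma) and Het minus WT 0.05 (-0.81 to 0.90). Without WT replicate 1, KO minus WT was -0.29 and Het minus WT -0.47, so the sign of both rested on that array.

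**Figure D1:**
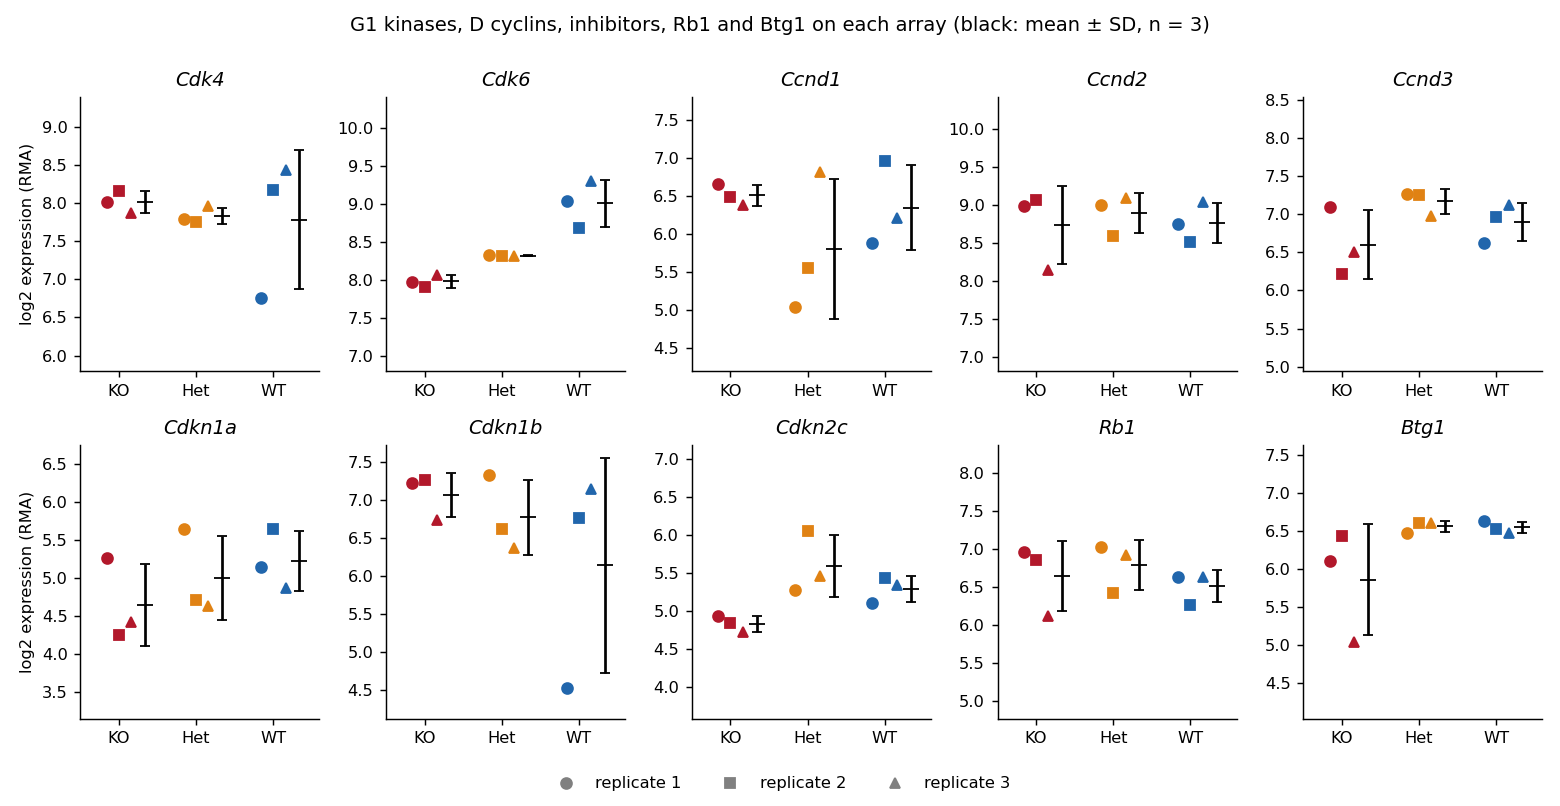
Log2 RMA expression (vertical axis) of the 10 genes on each of the 9 arrays, with KO, Het and WT from left to right; marker shapes give the replicate number and black bars the mean ± SD of 3 arrays. Every panel spans the same log2 range. Cdk6 lies in 3 separate bands, Cdkn2c and Btg1 have KO arrays below all others, and WT replicate 1 stands far below the rest for Cdk4 and Cdkn1b.

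The D cyclins, which carry the growth signal to the kinases, did not separate the genotypes. Ccnd1 read 6.66, 6.49 and 6.38 in KO cells, 5.04, 5.56 and 6.82 in Het cells and 5.88, 6.96 and 6.21 in WT cells. The KO arrays lay close together inside the range of both other groups, while Het replicates 1 and 2, both from male mice, were the lowest of all 9. Ccnd1 differed by 0.16 between KO and WT (95% interval -0.80 to 1.12) and by -0.54 between Het and WT (-1.50 to 0.42). With 1 array left out, these ran from -0.08 (without WT replicate 1) to 0.47 (without WT replicate 2) and from -1.05 (without Het replicate 3) to -0.16 (without Het replicate 1). The Het minus WT difference was 0.78 among female arrays (1 Het, 2 WT) and -1.66 among male arrays (2 Het, 1 WT).

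Ccnd2, the D cyclin that cytokines induce in blood cells, read 8.99, 9.07 and 8.15 in KO cells, 9.0, 8.60 and 9.09 in Het cells and 8.75, 8.52 and 9.04 in WT cells. All groups overlapped. Its KO minus WT difference was -0.03 (95% interval -0.69 to 0.62), and 0.26 without KO replicate 3, the lowest array. Ccnd3, the D cyclin of lymphoid and erythroid precursors, read 7.10, 6.21 and 6.50 in KO, 7.27, 7.26 and 6.98 in Het and 6.62, 6.96 and 7.12 in WT cells. KO replicates 2 and 3 were the lowest of the 9 arrays, but KO replicate 1 read inside the range of the others. Ccnd3 differed by -0.57 between KO and Het (95% interval -1.17 to 0.04, unadjusted p = 0.0641 in limma) and by -0.30 between KO and WT (-0.90 to 0.31). Without KO replicate 2 these were -0.37 and -0.10, and without KO replicate 1 -0.82 and -0.55.

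Among the inhibitors, Cdkn2c showed the clearest separation. It read 4.94, 4.84 and 4.73 in KO cells, 5.28, 6.05 and 5.46 in Het cells and 5.11, 5.44 and 5.34 in WT cells. Every KO array lay below every Het and every WT array, while Het and WT overlapped. The means were 4.84 ± 0.11 in KO, 5.60 ± 0.40 in Het and 5.30 ± 0.17 in WT cells (SD, n = 3 each). KO minus Het was -0.76 (SE 0.25, 95% interval -1.31 to -0.21, adjusted p = 0.998 in limma) and KO minus WT -0.46 (SE 0.25, -1.01 to 0.09, adjusted p = 0.650). Het minus WT had the opposite sign, 0.30 (-0.25 to 0.85), but was 0.07 without Het replicate 2, the highest array. The fitted change per deleted allele was -0.23 (adjusted p = 0.670 in limma). The KO minus WT difference was -0.50 among female and -0.55 among male arrays. KO levels of 4.73 to 4.94 lie less than 1 log2 unit above the top of the absent scale (4.22).

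Cdkn1b, the inhibitor that holds many resting cells out of the cycle, read 7.22, 7.26 and 6.74 in KO cells, 7.33, 6.62 and 6.37 in Het cells and 4.53, 6.76 and 7.15 in WT cells. WT replicate 1 was more than 1 log2 unit below the other 8 arrays, which overlapped. Its KO minus WT difference was 0.93 (95% interval -0.37 to 2.22, adjusted p = 0.687 in limma), but 0.12 without WT replicate 1, and Het minus WT was 0.63 (-0.67 to 1.92), but -0.18 without it. Its pooled SD of 0.88 was larger than that of 95.4% of the genes tested.

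Cdkn1a, the inhibitor that p53 induces, read 5.26, 4.26 and 4.43 in KO cells, 5.64, 4.72 and 4.64 in Het cells and 5.15, 5.65 and 4.87 in WT cells. The groups overlapped. Cdkn1a differed by -0.57 between KO and WT (95% interval -1.39 to 0.24, adjusted p = 0.693 in limma) and by -0.22 between Het and WT (-1.04 to 0.59). With 1 array left out, the KO minus WT difference ran from -0.88 (without KO replicate 1) to -0.36 (without WT replicate 2), and that of Het minus WT from -0.54 (without Het replicate 1) to -0.01 (without WT replicate 2).

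Rb1, whose product holds E2F factors silent until the kinases act, read 6.97, 6.86 and 6.12 in KO cells, 7.03, 6.42 and 6.93 in Het cells and 6.64, 6.27 and 6.64 in WT cells. All groups overlapped, and KO minus WT was 0.13 (95% interval -0.51 to 0.77, adjusted p = 0.898 in limma). With 1 array left out, it ran from -0.03 (without KO replicate 1) to 0.40 (without KO replicate 3). Rb1 was the only member with a second probe set of its own symbol, which spread far more: 7.23, 6.12 and 3.53 in KO, 2.52, 4.86 and 7.35 in Het and 4.25, 6.93 and 6.75 in WT cells. The Het arrays of that probe set alone spanned 2.52 to 7.35, which begins in the range of absent transcripts. It gave -0.35 for KO minus WT and -1.07 for Het minus WT, the opposite sign to the set described first (0.13 and 0.28).

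Btg1, an antiproliferative gene that resting lymphocytes express strongly, read 6.10, 6.44 and 5.04 in KO cells, 6.47, 6.61 and 6.60 in Het cells and 6.63, 6.53 and 6.48 in WT cells. Every KO array lay below all Het and WT arrays, with KO replicate 2, at 6.44, next to the lowest Het array at 6.47. The 6 Het and WT arrays stayed between 6.47 and 6.63. Btg1 differed by -0.69 between KO and WT (SE 0.33, 95% interval -1.41 to 0.04, adjusted p = 0.628 in limma), and -0.28 without KO replicate 3, which was the lowest. The within-sex differences were -1.52 for female arrays (KO replicate 3 against 2 WT) and -0.26 for male arrays.

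**Figure D2:**
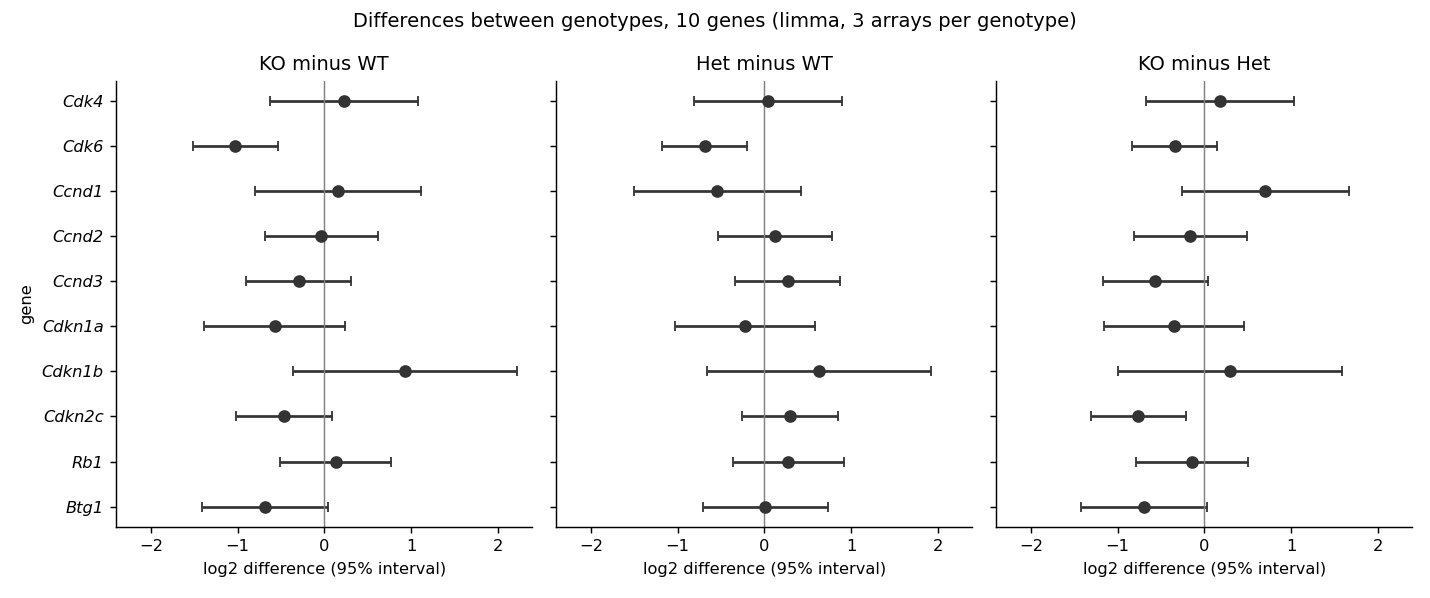
Log2 differences (horizontal axis) of the 10 genes for KO minus WT, Het minus WT and KO minus Het, with 95% intervals from the limma fit over all 9 arrays. The intervals exclude 0 for Cdk6 against WT in KO and in Het cells, and for Cdkn2c in KO minus Het; none of these passed the adjustment over all genes.

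Counted together, Cdk6, Cdkn2c and Btg1 had KO arrays below all Het and all WT arrays. That is 3 of 10 members, where 303 of 16636 genes (1.82%) showed the pattern. For KO against WT alone the count was again 3 of 10, with 7.32% of genes lower without overlap, and no member was higher without overlap (6.51% of genes). For Het against WT it was 1 of 10 lower (3.9% of genes) and none higher (4.51%), and for KO against Het 3 of 10 lower (5.4%) and none higher (4.42%). The median difference of the members was -0.17 for KO minus WT, against -0.04 over all genes tested, 0.09 against -0.01 for Het minus WT and -0.25 against -0.02 for KO minus Het. On average 4 members were higher (45.5% of genes) and 6 lower (54.4%) in KO than in WT cells, and 7 were higher (48.4%) and 3 lower (51.4%) in Het than in WT cells. The 10 genes were picked with earlier results on these arrays known, so these counts are a description.

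The sort gate and the cells around it were read on the same arrays. Of the stem cell markers, 10 had a probe set, and 10 of 10 were higher on average in KO and in Het than in WT cells, with none past the adjusted threshold. Their summed linear level was 2824 to 4008 in KO, 2639 to 3360 in Het and 1305 to 2234 in WT cells, so that the marker sum was higher in the genotypes in which Cdk6 was lower. Slamf1, the gate marker CD150, read 6.43 to 7.94 in KO, 6.61 to 7.34 in Het and 4.64 to 6.71 in WT cells. Flt3, which marks the next progenitor stage and which the gate excludes, read 3.55 to 4.03 in KO, 3.93 to 4.10 in Het and 4.99, 3.99 and 5.36 in WT cells, where only WT replicates 1 and 3 left the absent scale. Those same WT replicates, both from female mice, had the higher Cdk6 levels of the group. Cd34, low on mouse HSCs, read 9.08 to 10.09 in KO, 7.64 to 8.63 in Het and 7.79 to 8.07 in WT cells, and Cd48, another marker the gate excludes, 3.92 to 4.71, 3.90 to 5.13 and 3.63 to 4.83. Over the 6 progenitor genes read, 1 was higher and 5 were lower in KO than in WT cells, with Satb1 and Dntt in the absent range on every array, and the summed level was 629 to 1157 in KO, 286 to 522 in Het and 352 to 494 in WT cells, most of it Cd34. Granulocyte and monocyte genes summed to 408 to 732 in KO, 741 to 1045 in Het and 1202 to 1286 in WT cells, with 7 of 8 lower in KO on average. Stromal and endothelial genes summed to 269 to 287 in KO, 146 to 193 in Het and 113 to 152 in WT cells, so KO lay above both other groups, with 2 of 5 tested genes higher and 3 lower. Mast cell and basophil genes summed to 30.4 to 38.0 in KO, 28.3 to 45.6 in Het and 44.0 to 49.95 in WT cells, with Mcpt8, Ms4a2 and Gzmb in the absent range throughout. The part of these differences in the Cdk6 values was not tested. In bulk RNA, fewer cells with a transcript and less of it per cell cannot be told apart.

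Downstream and upstream of the kinases, 64 other genes in 8 lists were looked up, and 57 were tested. None passed after adjustment in any of the 3 comparisons (limma). Without adjustment, 1 was higher and 1 lower in KO than in WT cells, 2 higher and 1 lower in Het than in WT cells, and 2 lower in KO than in Het cells, all at p under 0.05. Over all genes tested, the matching shares were 5.4% higher and 2.81% lower for KO minus WT and 3.12% and 1.77% for Het minus WT. For KO minus Het, 1.95% were lower. The median difference of the 57 genes was 0.01 for KO minus WT.

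The other CDK inhibitors were lower in KO than in WT cells for 3 of 4, with a median of -0.24. Cdkn2a, which encodes p16-INK4a and p19-ARF and is known for marking senescent cells, read 4.36, 4.42 and 4.70 in KO, 5.15, 4.81 and 4.22 in Het and 4.98, 5.25 and 4.42 in WT cells. Het replicate 3 was at the top of the absent scale, and the KO arrays were little above it. Cdkn2d, another direct blocker of Cdk4 and Cdk6, differed by -0.34. It read 5.47, 5.51 and 4.83 in KO and 5.37, 5.38 and 6.08 in WT cells, which overlapped. Cdkn1c, the inhibitor known for keeping HSCs quiescent, averaged 4.70 ± 0.15 in KO, 4.80 ± 0.41 in Het and 4.61 ± 0.19 in WT cells (SD, n = 3 each), little above the absent scale.

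Of the pocket proteins, E2F factors and their DP partners, 8 of 12 were higher and 4 lower in KO than in WT cells (median 0.10). E2f6, a repressive E2F that acts without Rb, had the smallest p. It read 5.79, 6.48 and 5.52 in KO, 4.95, 5.79 and 5.56 in Het and 4.85, 5.62 and 4.96 in WT cells, a KO minus WT difference of 0.79 (unadjusted p = 0.042 in limma) with overlap between the groups. Tfdp1, the main DP partner, differed by 0.48. The Rb relative Rbl2 (p130), which is the pocket protein of resting cells, differed by 0.10, and Rbl1 (p107), which proliferating cells use, by 0.36. Both differences leaned on WT replicate 1, the lowest of all arrays, at 6.87 for Rbl2 and 4.89 for Rbl1. For Rbl2 the other WT arrays read 7.76 and 7.18, against 7.60, 7.22 and 7.29 in KO cells. For Rbl1 they read 6.39 and 6.74, against 6.15, 6.47 and 6.48 in KO cells.

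E2F targets of S phase entry, such as the Mcm helicase subunits, had a median KO minus WT difference of -0.04, with 5 of 11 higher and 6 lower. Pcna, the sliding clamp of DNA polymerase, read 10.06, 9.84 and 10.02 in KO, 10.17, 9.92 and 10.18 in Het and 10.26, 10.20 and 10.49 in WT cells; all KO and Het arrays were below all WT arrays, with mean differences of -0.34 and -0.23 (unadjusted p = 0.130 and 0.302 in limma). Over all genes tested, 7.32% were lower without overlap in KO than in WT cells and 3.9% in Het than in WT cells. Cdt1, the licensing factor of replication origins, differed by -0.45. In Het cells 9 of 11 of these genes were lower than in WT (median -0.19), with Mcm7 at -0.68 (unadjusted p = 0.0424 in limma).

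Cyclin E, cyclin A and Cdk2 genes with the kinase that activates CDKs had a median of -0.03, with Ccna2 at -0.38 and Mnat1 at -0.42. Mnat1 read 5.94 in KO replicate 3, where the other arrays read 7.12 to 8.01. Of the mitosis genes, 2 of 7 were higher and 5 lower (median -0.08). Aurkb, the kinase of chromosome alignment, read 5.75, 5.75 and 6.60 in KO, 6.66, 7.19 and 6.43 in Het and 7.17, 6.55 and 6.58 in WT cells, a KO minus WT difference of -0.73 (unadjusted p = 0.0446 in limma). KO replicates 1 and 2 were the lowest of the 9 arrays. Mki67, the proliferation marker Ki-67, read 8.95, 8.19 and 9.54 in KO, 9.10, 8.47 and 9.09 in Het and 9.40, 9.08 and 9.40 in WT cells (-0.40, unadjusted p = 0.268).

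The genes that degrade D cyclins and Cdkn1b split evenly, 3 higher and 3 lower, with Fbxo4 at 0.34 and Gsk3b at -0.44. Fbxo4 read 4.06 to 5.02 over all arrays, within or little above the absent scale. Gsk3b read 6.38 in KO replicate 1, against 7.41 and 7.97 in the other KO arrays and 7.60 to 7.83 in WT cells. Upstream, 5 of 7 regulators were higher and 2 lower in KO than in WT cells (median 0.10). Foxo1, a forkhead factor that growth signals shut out of the nucleus, read 6.14, 6.04 and 6.65 in KO, 6.62, 6.01 and 6.33 in Het and 6.77, 6.76 and 6.73 in WT cells. All KO and Het arrays lay below the WT arrays, with mean differences of -0.48 and -0.43 (unadjusted p = 0.0837 and 0.112 in limma). Of all genes tested, 7.32% lay so in KO and 3.9% in Het cells, each comparison taken alone. Stat5b, which relays cytokine signals, differed by 0.91, with WT replicate 1 at 4.75 and the other WT arrays at 6.60 and 6.59. Stat5a and Foxo3 were the genes with an unadjusted p under 0.05 that were higher in Het than in WT cells, at 0.59 and 0.64. Myc, whose product binds the E-box shown above, read 9.29 to 9.63 in KO and 9.25 to 9.36 in WT cells, and 7.65 in Het replicate 2 against 9.25 and 9.43 in the other Het arrays. Of the other BTG and Tob genes, 3 of 3 tested were higher on average in KO and in Het cells, with Btg2, which p53 induces, at 0.84 and Tob1 at 0.31 for KO minus WT. Btg2 read 4.94, 6.60 and 5.73 in KO and 4.42, 4.25 and 6.09 in WT cells, which overlapped. Its WT replicates 1 and 2 were little above the absent scale. Tob1 read 5.18, 3.93 and 4.12 in KO and 3.22, 4.58 and 4.49 in WT cells. Its KO replicates 2 and 3 and WT replicate 1 were within the absent scale.

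**Figure D3:**
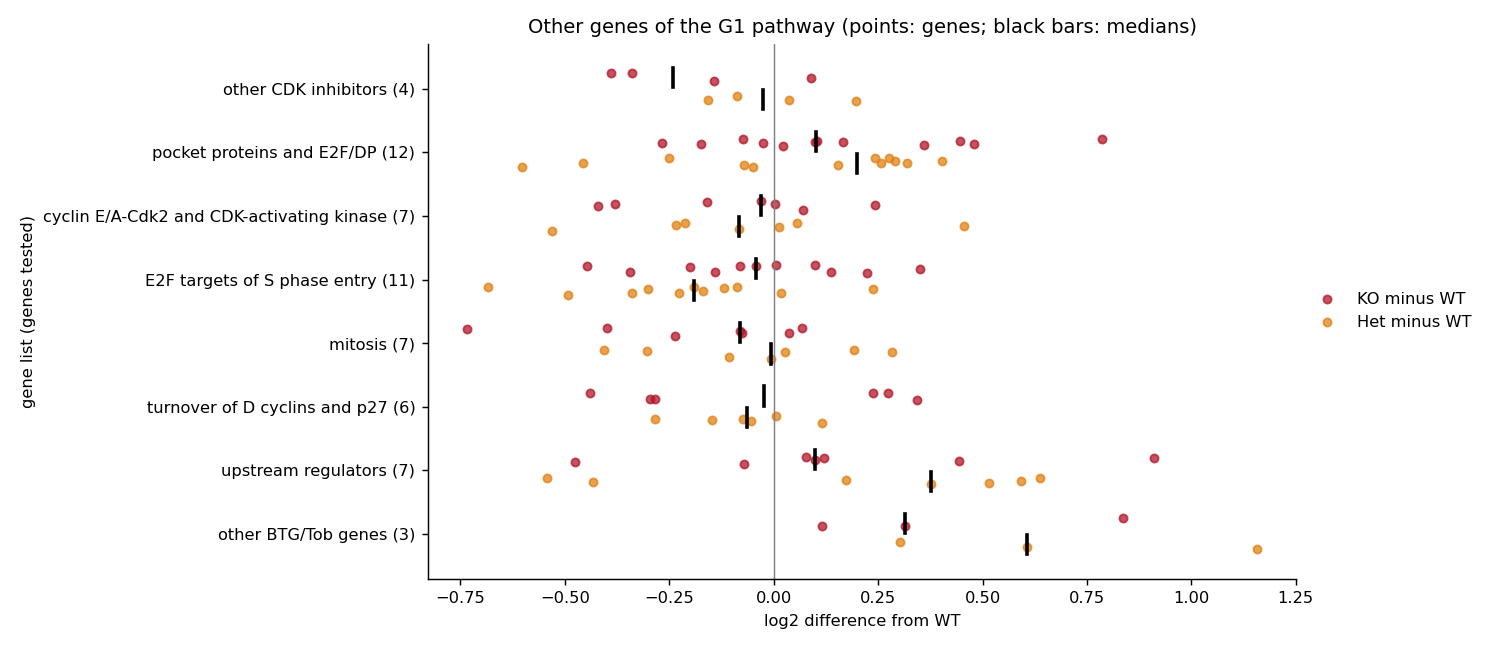
Log2 difference from WT (horizontal axis) for the tested genes of 8 lists around the kinases, with KO minus WT above Het minus WT in each list. Each point is a gene and black bars are list medians; points lie on both sides of 0 in all lists except the 3 BTG and Tob genes, and no gene passed the adjusted threshold.

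The genes whose pattern over the 9 arrays was most like that of Cdk6 were Mir3060 (Pearson's r = 0.947), Cenpa (0.932), Sh2d5 (0.921), Anxa8 (0.918) and Slc25a2 (0.910). The points share genotype groups and arrays, so r is a description. Cenpa, the histone variant that marks centromeres, read 6.39, 6.02 and 6.27 in KO, 6.42, 6.58 and 6.40 in Het and 6.81, 6.73 and 6.96 in WT cells, and Sh2d5 4.75 to 4.92, 5.14 to 5.19 and 5.21 to 5.46. Both thus had the order of Cdk6 without overlap. Anxa8 read in the absent range on all 9 arrays, Slc25a2 on all but WT replicate 3, and Mir3060 on all KO and Het arrays. None of the 5 passed in KO minus WT, with adjusted p from 0.0626 to 0.592 in limma. Among the members, r with Cdk6 over the 9 arrays ran from -0.44 for Cdkn1b to 0.41 for Btg1, and it was -0.17 for Cdk4 and 0.46 for Bcl11a.

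**Figure D4:**
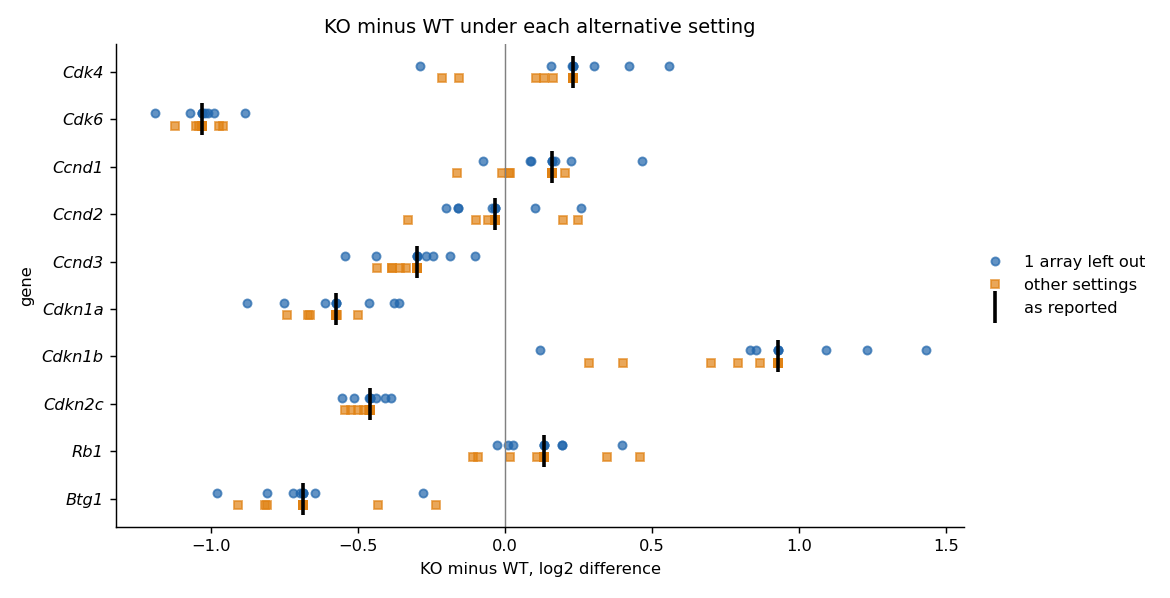
KO minus WT log2 difference (horizontal axis) of each gene as reported (black), with 1 array left out (blue) and under other settings (orange). Cdk6 and Cdkn2c keep narrow ranges below 0, while Cdk4, Ccnd1, Ccnd2 and Rb1 cross 0 and Cdkn1b spans 0.12 to 1.43.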

How the data were processed

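Labelled cDNA from sorted HSCs was made with a single-primer amplification for small RNA inputs, per the labels' protocols, a step that may widen differences between replicates. Values were deposited on a log2 scale after RMA by the authors (submitters' processing notes); neither RMA settings nor a build is stated there. RMA compresses differences of dim transcripts. Symbols came from the platform annotation: 23521 of 41345 probe sets had 1 symbol, updated by gene ID for 23328. A filter at the 25th percentile of gene means (log2 3.31) kept 16636 of 22180 genes. All 9 arrays entered 1 model of genotype means (limma 3.58.1, R 4.3.3), with 6 residual and 4.26 prior degrees of freedom, and p-values are two-sided. The number of arrays limits the precision (median SE of KO minus WT 0.298).

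The fit was tested on simulated data. The labels call the replicates biological. Alternatives varied filter, normalization, weights, sex, array spread, block, probe sets and arrays. Sex was read from Xist and Y-linked transcripts. Whether same-numbered arrays deviated together from their genotype means was checked, and most did not. The members and lists were chosen with earlier results of these data known. Named were all members, Bcl11a, the 2 genes of each list with the smallest p in KO minus WT, the 5 genes most like Cdk6 leaving out predicted genes, and gate markers; other names (Rbl1, Rbl2, Cdkn1c, Myc, Stat5a, Foxo3, Mcm7 and markers in the absent range) were chosen after their values were seen. The promoter words were chosen from known factors after their matches were seen.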

Additional observations from a re-analysis of the deposited data

Results flagged for a closer look

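Differences of opposite sign in female and male mice, with every array of each sex on its own side, were found for 3 members in KO minus WT, 1 in Het minus WT and 2 in KO minus Het. Each sex holds only 1 or 2 arrays per genotype, and the same was seen in 22.8%, 19% and 30.2% of the 16636 genes tested. The difference between the sexes was not tested. In KO minus WT, Ccnd1 gave 0.335 in female and -0.385 in male mice (0.72 apart), Ccnd2 -0.745 and 0.51 (-1.26 apart) and Rb1 -0.52 and 0.645 (-1.17 apart). The female KO array in these is KO replicate 3. In Het minus WT, Ccnd1 gave 0.775 in female and -1.66 in male mice (2.44 apart). In KO minus Het, Cdk4 gave -0.09 and 0.32 (-0.41 apart) and Ccnd1 -0.44 and 1.28 (-1.72 apart). Cdk6, Cdkn2c and Btg1 had KO minus WT differences below 0 in both sexes.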

How the results depend on the processing

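No member was called under any of the 20 alternatives to KO minus WT or under those of the other comparisons, so the members' count stayed at 0. Of the 619 recomputed member values, 35 changed sign. Changes per deleted allele of Cdk6 made up 19 of the 619, and differences between genotypes the rest. Cdk6, Ccnd3, Cdkn1a and Cdkn2c never changed sign, in 3 comparisons each. Many of the 619 could not do so, since their setting can move only the p-value and not the difference. Such settings include a changed filter, the replicate block, a fit to the compared arrays alone and a left-out array of the uncompared genotype. For members with 1 probe set, the mean of all probe sets also left the difference as it was. The share of 35 in 619 therefore does not measure how stable the signs were. With the interquartile range as a term, KO minus WT was -0.157 for Cdk4, -0.163 for Ccnd1 and -0.0927 for Rb1, Het minus WT -0.132 for Cdk4, -0.0103 for Ccnd2 and -0.0889 for Btg1, and KO minus Het -0.0247 for Cdk4. With array weights, Het minus WT of Cdk4 was -0.108 and KO minus WT of Ccnd2 0.199. With sex as a term, Het minus WT was -0.0206 for Cdk4 and -0.114 for Btg1, and after a further quantile normalization -0.0211 for Btg1. With the mean of all probe sets, Rb1 gave -0.108, -0.395 and 0.287 for KO minus WT, Het minus WT and KO minus Het, since its second probe set enters. Without both WT replicate 1 and KO replicate 3, chosen after seeing the data, KO minus WT was -0.215 for Cdk4, -0.01 for Ccnd1 and 0.25 for Ccnd2, Het minus WT -0.472 for Cdk4 and -0.182 for Cdkn1b, and KO minus Het 0.133 for Ccnd2 and 0.122 for Rb1.

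With 1 array left out, KO minus WT ranged from -0.288 to 0.557 for Cdk4, -0.075 to 0.465 for Ccnd1, -0.2 to 0.26 for Ccnd2 and -0.0267 to 0.398 for Rb1. Het minus WT ranged from -0.472 to 0.373 for Cdk4, -0.182 to 1.13 for Cdkn1b and -0.02 to 0.0583 for Btg1, and KO minus Het from -0.327 to 0.133 for Ccnd2 and -0.33 to 0.122 for Rb1. The 7 genes called over the whole array in KO minus WT became 4 with a filter at the median, 3 when normalized again or with sex, 24 with array weights, 0 with the interquartile range, 1 with the 6 arrays of the pair, 2 without both WT replicate 1 and KO replicate 3, and 0 to 15 with 1 array left out (0 without WT replicate 1 or KO replicate 1, 15 without KO replicate 3). The 3 called along the alleles became 15 with array weights, 1 with sex, 0 with the interquartile range or without both arrays, and 0 to 14 with 1 array left out. Except where named, the cause was not tested.

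Same-numbered arrays mostly did not deviate together from their genotype means: 1 of 9 such pairs did so at r over 0.1 (range -0.185 to 0.229), and 2 of 9 arrays correlated best with their own number. Array spread and sex can also enter these correlations, so the check cannot show whether the numbers mark pairs. With the replicate block 0 genes were called in KO minus WT and 7 along the alleles. The Cdk6 difference of -1.03, which the block cannot move, had an adjusted p of 0.370 in limma.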
